A study of Mus musculus with 14 samples.

Results

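The comparison described here is that of circulating blood from mouse embryos heterozygous for the Cbfb-MYH11 fusion with blood of their wild-type littermates, collected from E12.5 embryos. It covers 8 of the 14 arrays of the series, chosen by their labels alone: 4 arrays of Cbfb+/MYH11 blood and 4 arrays of WT blood. Both groups came from matings of Cbfb+/MYH11 chimeras with C57/Bl6 mice, so the mutants carried 1 fusion allele and 1 normal Cbfb allele, and the controls carried 2 normal alleles with no further allele or agent. Peripheral blood of 8 to 10 embryos of a genotype was pooled, and its total RNA was read on Affymetrix mouse expression arrays as log2 values after RMA normalization. The other 6 arrays, 3 of Cbfb-/- and 3 of Cbfb+/+ blood from a cross of Cbfb+/- mice, entered the model only to share its estimate of the spread, apart from a short comparison of 10 genes. By their titles, the arrays of each group are technical replicates. What the p-values and intervals measure is thus array-to-array spread that may be technical, not the spread between litters or pools.

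Cbfb encodes the non-DNA-binding partner of the Runx transcription factors, and together they form the core binding factor that blood stem cells, megakaryocytes and myeloid cells need. A chromosome inversion in human acute myeloid leukaemia joins the gene to that of smooth muscle myosin heavy chain, MYH11, and the fusion protein acts largely as an inhibitor of the complex. Embryos with the fusion allele lack definitive blood formation in the fetal liver, so their circulating blood is made of the primitive red cells of the yolk sac with the few other cells that accompany them. In normal blood of this stage, primitive red cells are finishing their last divisions while macrophages and early platelets circulate beside them.

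The labelled tissue was checked by its red cell markers. The embryonic globin Hba-x lay between 14.28 and 14.33 on all 8 arrays, and Hbb-y between 14.19 and 14.48. The heme enzyme Alas2 lay between 13.13 and 13.57, and the anion exchanger Slc4a1 between 12.83 and 13.34. The altered gene was read by 1 probe set, and the sources used here do not say whether it lies in the part of Cbfb that the fusion keeps. Cbfb stood at 6.62, 6.57, 8.31 and 8.14 in WT, in the order of the array numbers, and at 8.44, 8.56, 6.91 and 7.06 in the mutant. Its level thus followed neither genotype, being high on WT arrays 3 and 4 and on mutant arrays 1 and 2, and it does not check the labels. The mouse Myh11 probe set lay between 5.87 and 6.14 on all 8 arrays.

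Arrays 1 and 2 of each genotype were close to each other, as were arrays 3 and 4. The SD of the difference across genes was 0.114 to 0.276 within such a pair and 0.365 to 0.714 between pairs of a genotype. The labels do not say whether a pair is a blood pool or a hybridization batch. Every change below is therefore given over all 4 arrays and, where it matters, within arrays 1 and 2 and within arrays 3 and 4. Each of these within-pair changes rests on 2 arrays against 2.

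Expression differed widely between the genotypes, and more genes were higher than lower in the mutant. Of 7392 genes that reached a log2 value of 6 on at least 3 arrays, 2255 rose (30.5%) and 416 fell (5.63%) at an adjusted p under 0.05 in limma and a change of at least 1.5-fold. In both array pairs as well as in the 4-group fit, 1530 rose (20.7%) and 261 fell (3.53%). The change itself differed between the pairs for 1446 genes (19.6%), being larger in arrays 1 and 2 for 1125 and larger in arrays 3 and 4 for 321. For 40 genes the pairs were called in opposite directions. These percentages are the background against which the counts of each gene group are set below.

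The excess of higher genes depended on scaling. Over the tested genes the change had a median of 0.26, or of -0.02 once the arrays were quantile normalized, with 1307 genes higher and 1043 lower. Of the tested genes, 417 passed the filter through the mutant arrays alone, which favours a rise, and 332 of these were called higher. Through the WT arrays alone 48 passed, and 17 of these were called lower. A further limit is that the arrays form so few pairs. With the arrays of a pair averaged to 1 value, only 18 genes were called by limma (2152 at an unadjusted p under 0.05). Of these, 17 rose: Csf2rb2, Csf2rb, Gpc4, Tmem71, Adcy7, Cd200r3, Emilin2, Fam221a, Ms4a2, Padi3, Pfkp, Smad6, 1700042O10Rik, Tmem14c, Gata2, Ociad2 and Spns2. The only one that fell was Hspb8. Among the risen genes at least Cd200r3, Ms4a2, Fam221a, Tmem71, Pfkp and 1700042O10Rik passed the filter through the mutant arrays alone, which favours a rise. The calls of all other genes below rest on the single arrays and were lost in that fit.

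**Figure D1:**
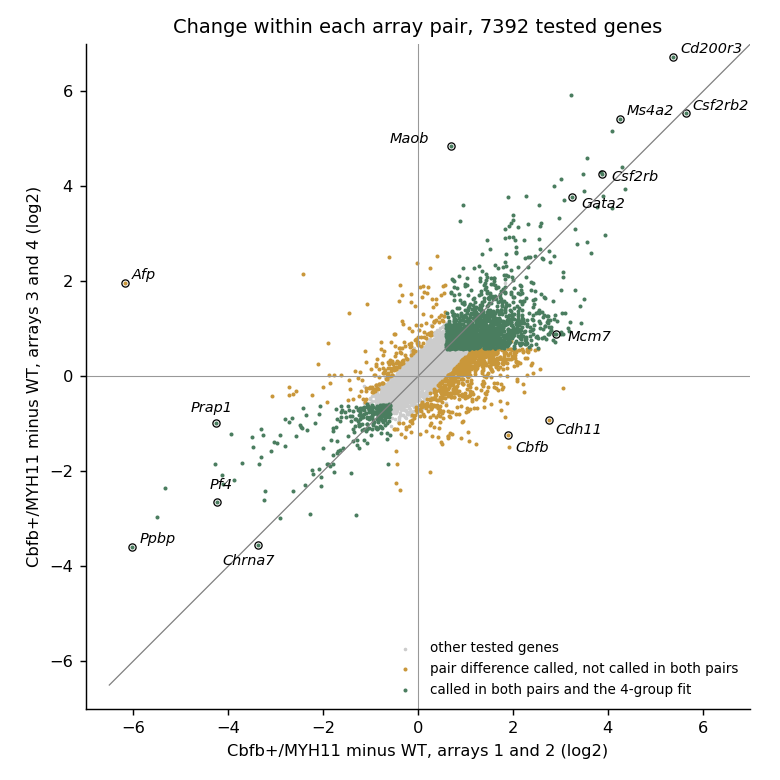
Change of each of the 7392 tested genes (Cbfb+/MYH11 minus WT, log2) within arrays 1 and 2 (x axis) against the change within arrays 3 and 4 (y axis), with the line of equality. Green genes were called in both pairs and in the fit of all arrays, ochre genes differed between the pairs without being called in both. Csf2rb2 (5.63 and 5.54) and Chrna7 (-3.36 and -3.55) lie on the line, Afp (-6.17 and 1.97) and Cbfb (1.90 and -1.24) far from it.

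Ranked by the smaller of the within-pair changes, the largest rise was that of a receptor gene of the interleukin 3 family. Cytokines of this family signal through a specific alpha chain and a common beta chain, Csf2rb, and mice have a near-identical beta chain besides, Csf2rb2, which serves interleukin 3 alone. Csf2rb2 stood at 5.17, 5.62, 5.69 and 5.70 in WT and at 11.02, 11.04, 11.17 and 11.29 in the mutant. All 4 mutant arrays were far above all WT arrays, by 48.0-fold (95% interval 40.1 to 57.6). That interval, like the others given with folds below, treats the 4 arrays as independent and so overstates the precision. Csf2rb stood at 7.41, 7.52, 7.38 and 7.31 in WT and at 11.37, 11.30, 11.57 and 11.64 in the mutant. It rose 16.8-fold (14.6 to 19.2), and its other probe set past the filter gave 4.31 on the log2 scale against 4.07. Because the sequences of both genes are so alike, how far each probe set reads the other transcript is uncertain.

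The alpha chains that make these receptors specific did not show such levels. Il3ra lay between 4.65 and 4.96 on all 8 arrays, Il5ra between 2.76 and 3.39 and Csf2ra between 4.54 and 6.04, so none passed the filter. Kit, the stem cell factor receptor of progenitors and mast cells, was also below it, at 4.48 to 4.76 in the mutant and 4.49 to 5.66 in WT. Of 9 tested cytokine receptors 4 rose and 0 fell, and 3 rose in both pairs. Beside both beta chains these were the interferon receptor chain Ifnar2 and the erythropoietin receptor Epor. Ifnar2 rose by 1.39, though its other probe set gave 0.26. Epor went from 8.88, 8.96, 8.85 and 8.76 to 9.62, 9.89, 9.28 and 9.25. Epor passed in arrays 1 and 2 (0.84) and not in arrays 3 and 4 (0.46), and it lost its call with quantile normalization (0.32) or without Cbfb+/MYH11 array 2 (0.52). Flt3 (-0.32), Csf1r (0.23), Ifnar1 (0.32), Tgfbr1 (0.26) and Tnfrsf1a (-0.54) did not pass, but Tnfrsf1a passed as lower with quantile normalization (-0.92) and without Cbfb+/MYH11 array 1 (-0.64) or WT array 3 or 4 (both -0.60).

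Downstream of these receptors, the kinase JAK2 activates the STAT5 proteins, which turn on feedback inhibitors and cyclins. Of 22 tested genes of this pathway 5 rose and 3 fell, all 8 in both pairs. The 5 are a share below the 30.5% of all tested genes that rose and near the 20.7% that rose in both pairs. The 3 can be set beside the 3.53% that fell in both pairs. The rises were those of Jak2 itself (0.83), of the feedback inhibitors Cish (0.81) and Socs2 (0.95), and of Ccnd2 (1.81) and Id1 (1.20). The other probe set of Jak2 gave 0.55. Cish stood at 7.78, 7.76, 7.20 and 7.63 in WT and at 8.50, 8.64, 8.17 and 8.27 in the mutant, without overlap. The genes of both STAT5 proteins were lower. Stat5a stood at 8.54, 8.57, 7.94 and 7.86 in WT and at 7.27, 7.19, 6.83 and 6.89 in the mutant and fell 2.27-fold (1.78 to 2.90), while Stat5b fell 1.82-fold. The inhibitor gene Socs3, at 7.63 to 7.92 in WT and 6.67 to 6.81 in the mutant, fell 2.05-fold. The serine kinases Pim1 (0.04), Pim2 (-0.55) and Pim3 (0.38) and the survival genes Mcl1 (0.49) and Bcl2l1 (-0.57) did not pass. Pim2 passed as lower with quantile normalization (-0.66) and without Cbfb+/MYH11 array 2 (-0.63) or WT array 3 (-0.64) or 4 (-0.62), Bcl2l1 as lower with quantile normalization (-0.86) and with the mean of its probe sets (-0.61), and Mcl1 as higher with centred arrays (0.60) and with the mean of its probe sets (0.74). The median of the pathway was 0.07, below that of all tested genes (0.26). With quantile normalization 3 rose and 6 fell, and Jak2 (0.44) and Cish (0.40) were no longer called. Ccnd2 missed the call with the 8 arrays alone and without Cbfb+/MYH11 array 3 (1.67), WT array 1 (1.28) or WT array 2 (1.36), and 5 of the list fell without Cbfb+/MYH11 array 2, WT array 3 or WT array 4.

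Genes of mast cells and basophils came up from levels near the floor of the array. These cells carry the high-affinity IgE receptor, make histamine and store it with proteases on a proteoglycan, serglycin. Cd200r3, an activating receptor of both cell types, stood at 2.91, 2.52, 2.30 and 2.36 in WT and at 8.04, 8.13, 8.99 and 9.12 in the mutant (66.1-fold, 46.5 to 94.0). Ms4a2, the beta chain of the IgE receptor, stood at 3.97, 3.88, 3.61 and 3.56 in WT and at 8.12, 8.22, 8.99 and 9.03 in the mutant (28.5-fold). At WT values this low both folds may be understated. The histamine-forming enzyme gene Hdc stood at 5.54, 5.35, 4.60 and 4.91 in WT and at 7.87, 8.13, 8.29 and 8.44 in the mutant. The carboxypeptidase gene Cpa3 stood at 4.91, 4.98, 4.91 and 4.78 in WT and at 7.65, 7.79, 7.26 and 7.22 in the mutant.

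The same direction was seen in 3 further genes. The serglycin gene Srgn, which other blood cells also express, rose by 2.84, with WT arrays between 7.75 and 8.97 and mutant arrays between 10.79 and 11.56. The transcription factor gene Mitf rose by 2.37 and the vesicular amine transporter gene Slc18a2 by 1.47. In all, 7 of 8 tested members rose, each in both pairs, against the 20.7% of all tested genes given above. The change was larger in arrays 3 and 4 for 6 of them and did not differ between the pairs for Cpa3 (adjusted p = 0.238 in limma). Of the 8, however, 6 passed the filter through the mutant arrays alone and so had to differ, and the median of 2.71 cannot be read as that of the whole list.

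Most of the list stayed low. Of its 24 genes, 22 have a probe set and 14 of these did not pass the filter. The alpha chain of the IgE receptor, Fcer1a, lay between 2.56 and 3.75 on all 8 arrays. The mast cell proteases Mcpt4 (4.33 to 5.17) and Cma1 (4.33 to 5.08) and the tryptase Tpsab1 (3.10 to 3.86) were as low in the mutant as in WT. Il4, a cytokine of these cells, just missed the filter, at 3.67, 3.41, 3.42 and 3.07 in WT and 5.49, 5.37, 6.06 and 5.94 in the mutant. Without the filter the median of the list was -0.15. In bulk blood a change in the number of such cells and a change in RNA per cell cannot be told apart.

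The promoters of 3 of these genes are shown because GATA2, whose own gene rose, and other GATA proteins bind the letters AGATAA in mast cell genes. The windows run from 250 bases before to 50 bases after the start of transcription in RefSeq (GRCm38.p6), each 5′ to 3′ on the strand of its gene. Capitals mark AGATAA or its reverse complement TTATCT. Ms4a2 lies at chr19:11623670-11623969 on the minus strand, Cpa3 at chr3:20242132-20242431 on the minus strand and Cd200r3 at chr16:44943428-44943727 on the plus strand.
Ms4a2: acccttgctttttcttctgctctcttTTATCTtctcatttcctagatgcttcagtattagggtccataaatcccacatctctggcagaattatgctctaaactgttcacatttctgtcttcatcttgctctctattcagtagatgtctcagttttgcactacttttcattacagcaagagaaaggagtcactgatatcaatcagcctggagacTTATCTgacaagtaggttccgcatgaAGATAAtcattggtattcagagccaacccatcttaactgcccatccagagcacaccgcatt
Cpa3: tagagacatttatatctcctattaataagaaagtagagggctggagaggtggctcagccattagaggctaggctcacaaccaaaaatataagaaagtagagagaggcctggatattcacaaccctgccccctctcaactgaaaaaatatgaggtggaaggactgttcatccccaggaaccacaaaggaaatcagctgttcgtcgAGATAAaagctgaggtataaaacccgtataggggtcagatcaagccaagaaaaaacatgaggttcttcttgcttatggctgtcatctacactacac
Cd200r3: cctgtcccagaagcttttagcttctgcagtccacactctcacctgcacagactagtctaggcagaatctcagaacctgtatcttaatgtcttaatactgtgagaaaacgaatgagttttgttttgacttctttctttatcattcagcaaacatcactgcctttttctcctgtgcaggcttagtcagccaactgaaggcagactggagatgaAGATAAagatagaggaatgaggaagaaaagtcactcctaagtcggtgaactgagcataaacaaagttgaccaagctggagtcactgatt

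The Ms4a2 window holds 3 matches, which begin at -224, -37 and -11 from the start. Cpa3 holds 1 at -46 and Cd200r3 1 at -39. Slc18a2 has 1 at -230, and the windows of Hdc, Srgn and Mitf have none. At least 1 window with a match was thus found for 4 of the 7 risen genes, against 7.57% of the 6053 tested genes that have a window and 12.7% of all 27025 genes with one. The letters of the Runx motif, TGTGGT or ACCACA, which do not overlap these, were in 3 of the 7 genes, against 14.5% of tested genes. Over all genes that rose in both pairs 89 of 1271 held the GATA letters and 185 the Runx letters, and over those that fell 27 and 36 of 215 (12.6% and 16.7%). Of the 10 fallen platelet genes with a window, 2 held the GATA letters and 2 the Runx letters (20% each). The 7 genes are few and come from a list chosen with earlier results known, so these shares are no test. A match is only a description of these windows.

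Of the enzymes that make leukotrienes, lipid mediators of mast cells and myeloid cells, some rose and others did not. Alox5, the 5-lipoxygenase that begins the pathway, stood at 6.68, 6.47, 6.04 and 6.22 in WT and at 8.57, 8.78, 9.30 and 9.24 in the mutant and rose 6.15-fold (4.63 to 8.16). Lta4h, the hydrolase that makes leukotriene B4, rose by 1.31. Alox5ap, the partner protein of Alox5, rose by 1.01 over all arrays, but by 1.91 in arrays 3 and 4 and with 0.12 in arrays 1 and 2, and it lost its call with quantile normalization (0.70) and with the array pair as a random block. The synthase Ltc4s was at -0.44. The platelet lipoxygenase Alox12 stood at 7.30, 7.54, 5.65 and 5.50 in WT and at 3.55 to 3.87 in the mutant and fell 6.82-fold. Of the 8 tested genes of the list 3 rose, 2 of them in both pairs, and 1 fell. The shares that rose are near those of all tested genes (30.5% and 20.7%).

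**Figure D2:**
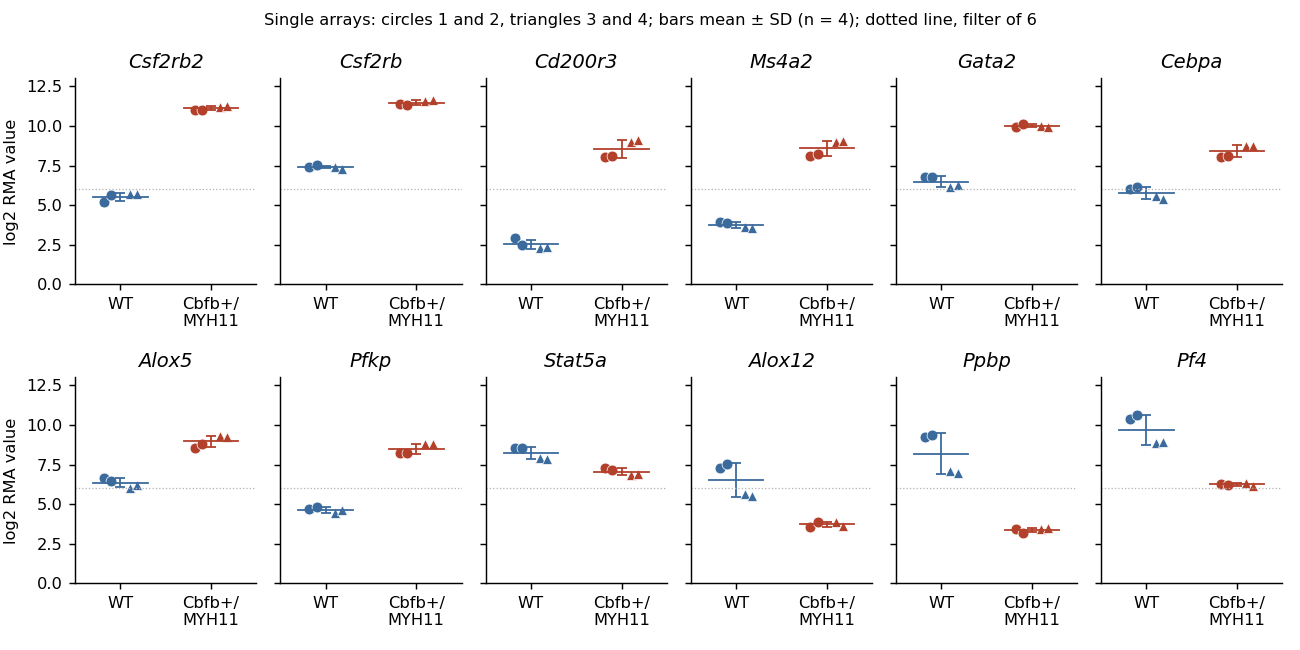
Log2 RMA values of 12 genes on each array (y axis), for WT (blue) and Cbfb+/MYH11 (red). Circles are arrays 1 and 2, triangles arrays 3 and 4, bars the mean ± SD (n = 4), and the dotted line the filter of 6. Csf2rb2, Csf2rb and Gata2 differ little between the pairs of the mutant, whereas WT arrays 1 and 2 exceed WT arrays 3 and 4 for Alox12, Ppbp and Pf4.

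Several transcription factor genes of blood progenitors rose. Gata2, which maintains stem cells and directs the mast cell and basophil lineages, stood at 6.79, 6.80, 6.13 and 6.26 in WT and at 9.94, 10.15, 9.99 and 9.95 in the mutant (11.4-fold, 8.21 to 15.9). Its other probe set gave 4.11 against 3.51. Cebpa, the driver of the myeloid lineage, stood at 6.01, 6.12, 5.55 and 5.40 in WT and at 8.04, 8.10, 8.75 and 8.77 in the mutant (6.24-fold). Lmo2, a bridging partner of the GATA proteins, was nearly constant in the mutant, at 10.42 to 10.47, and at 8.63 to 9.08 in WT. Spi1, which encodes the myeloid factor PU.1, rose by 1.38, with 0.73 in arrays 1 and 2 and 2.03 in arrays 3 and 4.

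Further members were the proto-oncogenes Myb (1.35) and Myc (1.07), of which Myc moved from 6.14 to 6.21 in WT to 7.17 to 7.36 in the mutant. The Ikaros family genes Ikzf1 (1.35) and Ikzf2 (2.47) rose in both pairs, though the other probe set of Ikzf1 gave 0.47. Hhex (1.10) rose over all arrays but not in arrays 1 and 2 (0.48) or with the array pair as a random block. Of 19 tested genes 9 rose and 0 fell, 8 in both pairs, with a median of 1.07 against 0.26 for all tested genes, and 4 of the 19 passed the filter through the mutant arrays alone. Without the filter the median of the list was 0.11. Tal1 (-0.39), Gfi1b (-0.01), Lyl1 (0.11), Mecom (-0.20), Hoxa9 (-0.25) and Bmi1 (1.08) were among those that did not pass, although Bmi1 did so with the replicate block and without WT array 3 (1.47) or 4 (1.46).

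Surface genes of progenitors did not follow these factors. Of 9 tested 0 rose and 3 fell, namely the tetraspanin Cd9 (-1.58), the integrin Itga6 (-0.74) and the inhibitor of phagocytosis Cd47 (-0.65, not called in arrays 3 and 4). With quantile normalization 5 fell. Cd47 lost its call with centred arrays (-0.54) and without Cbfb+/MYH11 array 1 (-0.58), and Itga6 with the array pair as a random block. The 3 probe sets of Cd47 ranged from -0.65 to -0.31. Cd34 lay between 3.77 and 5.41 on all arrays and did not pass the filter. Among the core binding factor genes and their corepressors 2 of 17 rose, the deacetylase Hdac1 (0.80) and Cbfa2t3 (0.62), both not called in 1 of the pairs and not with quantile normalization (0.40 and 0.23). The 3 probe sets of Cbfa2t3 ranged from -0.21 to 0.62, and their mean was not called (0.09). Its call was also lost with the array pair as a random block and without Cbfb+/MYH11 array 3 (0.54) or 4 (0.57) or WT array 4 (0.57), and 5 of the list rose without WT array 3 and 4 without WT array 4. Runx1 stood at 6.77, 6.85, 6.17 and 6.14 in WT and at 6.34, 6.44, 6.11 and 6.11 in the mutant, a change of -0.23 that did not pass. Runx3 (-0.25) did not pass either.

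The other large rises that were called in both pairs came from genes of varied function. Prnp, the prion protein gene, stood at 6.24, 6.02, 7.13 and 7.09 in WT and at 10.39, 10.45, 11.49 and 11.56 in the mutant. Both genotypes were higher in arrays 3 and 4, and the change was alike in the pairs (4.29 and 4.41). The proteoglycan gene Gpc4 stood at 5.72, 5.59, 5.98 and 5.83 in WT and at 9.49, 9.60, 9.76 and 9.65 in the mutant (14.4-fold, 12.4 to 16.7). The nucleoside transporter gene Slc29a1, at 5.24 to 6.09 in WT, was at 9.05 to 9.61 in the mutant (12.7-fold). The lipid raft gene Flot2 rose by 4.15 (2.56 by its other probe set), the phospholipid enzyme gene Chpt1 by 3.70 (2.33 by its other probe set), and Tpd52l1 by 3.82. Fam221a (4.63), Tmem71 (4.08) and 1700042O10Rik (4.08), whose functions are little known, rose from WT means under 4. These genes, Chpt1 and Tpd52l1 all passed the filter through the mutant arrays alone, which favours a rise.

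Of the genes called also with 1 value per pair, some had smaller folds but little spread, and were named here after their values were seen. Tmem14c, which carries porphyrin across the inner mitochondrial membrane for heme synthesis, stood at 8.63, 9.08, 8.85 and 8.85 in WT and at 11.15, 11.21, 11.15 and 11.17 in the mutant. It rose 4.97-fold, by 2.32 and 2.31 in the pairs. Adcy7, an adenylyl cyclase of blood cells, stood at 5.21 to 5.76 in WT, under the filter of 6, and at 8.68 to 8.76 in the mutant. Spns2, a transporter of sphingosine 1-phosphate, rose by 3.21, Smad6, an inhibitor of BMP signalling, by 3.07, Ociad2 by 2.91, Padi3 by 3.40 and the matrix gene Emilin2 by 2.63.

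By the same ranking the largest fall was that of a platelet gene. Ppbp, the platelet basic protein, stood at 9.26, 9.37, 7.11 and 6.99 in WT and at 3.40, 3.20, 3.46 and 3.47 in the mutant. The mutant arrays were alike and low, while WT arrays 1 and 2 exceeded WT arrays 3 and 4 by more than 2 log2 units. Pf4, the platelet factor 4 gene, stood at 10.36, 10.64, 8.87 and 8.92 in WT and at 6.28, 6.24, 6.36 and 6.15 in the mutant (10.9-fold lower, 6.67 to 17.7). The podoplanin receptor gene Clec1b stood at 7.64, 8.25, 6.15 and 6.05 in WT and between 3.75 and 4.24 in the mutant. F13a1, the A subunit of clotting factor XIII, fell by 4.23, the adhesion receptor subunit gene Gp1bb by 3.06, the thrombospondin gene Thbs1 by 2.21 and the fibrinogen receptor gene Itgb3 by 2.07. Myl9, the myosin light chain of platelets and smooth muscle, fell in equal measure in both pairs (-2.23 and -1.97).

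Of 18 tested members 13 fell and 1 rose, 12 fell in both pairs, with a median of -1.76. That share can be set beside the 3.53% of all tested genes that fell in both pairs. The change differed between the pairs for 15 of the 18 tested members, not all of them called lower, and the medians were -2.15 in arrays 1 and 2 and -0.95 in arrays 3 and 4. Tubb1 (0.46), the tubulin of platelets, and Itga2b (-0.13), which primitive red cell precursors share, did not pass. Plek rose by 1.18, but with -0.02 in the first array pair against 2.39 in the other, and it lost its call with quantile normalization (0.82) and with the 8 arrays alone. Tubb1 passed as higher without WT array 1 (0.59) or 2 (0.64).

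Macrophage genes were lower in most members and higher in a few. The mannose receptor gene Mrc1 stood at 9.21, 9.43, 6.19 and 6.17 in WT and at 3.97, 4.01, 3.88 and 3.77 in the mutant. The complement genes C1qa (-2.48), C1qb (-1.77) and C1qc (-2.19), the adaptor gene Tyrobp (-2.34), the cathepsin gene Ctss (-2.60) and the factor gene Maf (-2.58) fell, each in both pairs. Of 14 tested 9 fell and 2 rose, 9 fell in both pairs, and all 14 differed between the pairs. The Fc receptor gene Fcgr3, which mast cells express too, went the other way: it stood at 6.98, 7.45, 5.46 and 5.26 in WT and at 8.08, 8.24, 8.89 and 9.04 in the mutant. Csf1r did not pass over all 4 arrays (0.23), with -1.08 in the first array pair and 1.53 in the other. Of 17 tested lysosomal genes 0 rose and 4 fell, Ctss, Lgmn (-0.99), Ctsc (-1.44) and Hexa (-0.79), of which Ctss and Lgmn fell in both array pairs. Ctsc and Hexa were lost with the 8 arrays alone, Ctsc also without WT array 1 (-1.05) or 2 (-1.03) and Hexa without Cbfb+/MYH11 array 1 (-0.62) or 2 (-0.63) or WT array 2 (-0.60). Without WT array 2 the number was 2, and without Cbfb+/MYH11 array 1 or 2 the list had 2 risen genes.

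The level of both lists in WT depended on the array pair. The mean of the 29 platelet genes with a probe set was 6.83 on WT arrays 1 and 2, 5.73 on WT arrays 3 and 4 and 4.98 to 5.03 on the mutant arrays. For the 25 macrophage genes these means were 6.52, 5.15 and 4.78 to 4.87. Liver and visceral endoderm genes moved the same way in WT, with 6.50 on arrays 1 and 2 and 4.93 on arrays 3 and 4, against 4.80 to 5.29 in the mutant. Their part in the falls was not tested.

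**Figure D3:**
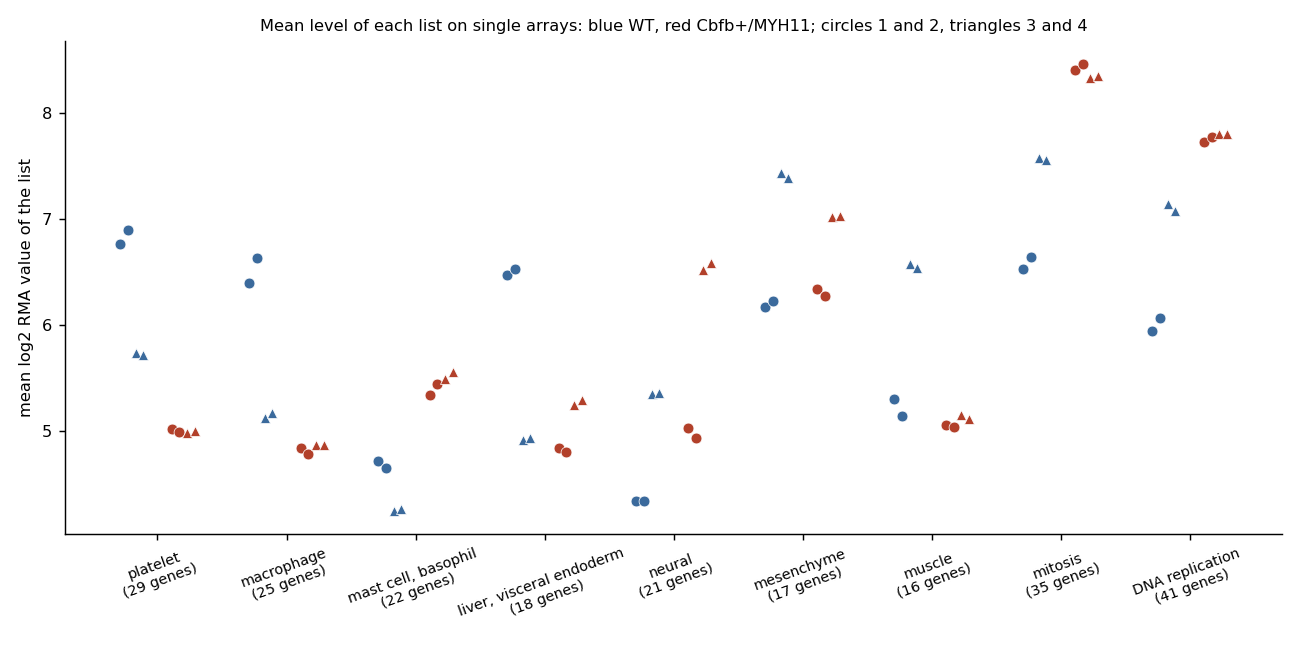
Mean log2 RMA value of all members with a probe set (y axis) of 9 gene lists (x axis), on each array. Blue is WT, red Cbfb+/MYH11, circles are arrays 1 and 2, triangles arrays 3 and 4. WT arrays 1 and 2 hold the highest platelet, macrophage and liver levels and the lowest levels of mitosis and DNA replication genes, while the mutant arrays differ little from each other in the platelet, mitosis and replication lists.

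Genes of other mature white cells were mostly below the filter. Of the granulocyte list only Mpo, the myeloperoxidase gene, was tested. It stood at 6.91, 6.77, 6.90 and 6.84 in WT and at 4.69, 4.91, 4.66 and 4.84 in the mutant and fell 4.23-fold (3.59 to 4.98), alike in both pairs (-2.04 and -2.12). Of the lymphoid list only the adaptor gene Skap1 was tested, and it fell by 2.81. Among antigen presentation genes H2-D1 alone of 6 rose, by 1.44, and B2m was at 0.19.

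Other genes with large falls in both pairs had no common theme among the lists. Chrna7, a nicotinic receptor subunit gene, stood at 7.32, 7.61, 6.99 and 7.02 in WT and at 4.32, 3.88, 3.57 and 3.35 in the mutant and fell by 3.46, although its other probe set gave -1.47. Hspb8, a small heat shock protein gene, stood at 8.70, 8.83, 8.48 and 8.46 in WT and at 6.10, 6.15, 6.17 and 5.92 in the mutant (5.78-fold lower, 4.99 to 6.70). Il1bos fell by 2.94, Tmed8 by 2.93 (other probe set -0.76) and Fam220a by 2.13. The proteinase inhibitor genes Ctla2a and Ctla2b, near-identical copies whose probe sets may read each other, fell by 3.19 and 3.02.

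Red cell genes went both ways. The embryonic globins were not called: Hbb-bh1 stood between 13.96 and 14.02 in WT and between 14.46 and 14.50 in the mutant (0.50), Hbb-y was at -0.19 and Hba-x at 0.03. Values this close to the top of the scale may be saturated, and with centred arrays Hbb-bh1 passed (0.61). The adult globin gene Hbb-b2 stood at 11.70, 11.95, 12.07 and 12.27 in WT and at 10.75, 10.86, 11.06 and 11.12 in the mutant and fell 2.08-fold. That call was lost with the mean of its probe sets (-0.54), and beta globin genes are near-identical.

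The heme synthesis genes Alad, Uros, Cpox and Ppox rose in the mutant, and those of its first and last steps did not. Heme is built from a first, rate-limiting step by Alas2 through intermediate enzymes to Fech, which inserts the iron. Alas2 was at -0.23. Alad stood at 10.61, 10.69, 10.63 and 10.70 in WT and at 11.70, 11.72, 11.61 and 11.65 in the mutant (2.02-fold, 1.83 to 2.23). Its other probe set gave 0.45 against 1.01 on the log2 scale. Uros stood at 9.77 to 9.80 in WT and 10.70 to 10.84 in the mutant. Cpox, at 8.35 to 8.60 and 9.74 to 10.22, rose 2.79-fold, and Ppox rose 1.90-fold, though the mean of its probe sets was at 0.15 and not called. Urod (0.47) and Fech (-0.53) missed the floor of 1.5-fold, and Fech passed as lower with quantile normalization (-0.63).

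Heme export and breakdown changed as well. The porphyrin exporter gene Abcg2, also a stem cell marker, stood at 7.16, 7.39, 7.71 and 7.56 in WT and at 9.08, 9.13, 9.42 and 9.34 in the mutant (3.45-fold). Blvra, which turns biliverdin into bilirubin, rose by 1.72 and passed the filter through the mutant arrays alone. Hmox1, which degrades heme and is induced by it, stood at 10.72, 10.81, 10.26 and 10.29 in WT and at 9.21, 9.30, 9.42 and 9.40 in the mutant and fell 2.28-fold. The heme exporter gene Flvcr1 fell by 0.74. In all 6 of 16 tested rose and 2 fell, each in both pairs, beside 20.7% and 3.53% of all tested genes. The median of the 16 was 0.21, and -0.10 with quantile normalization.

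**Figure D4:**
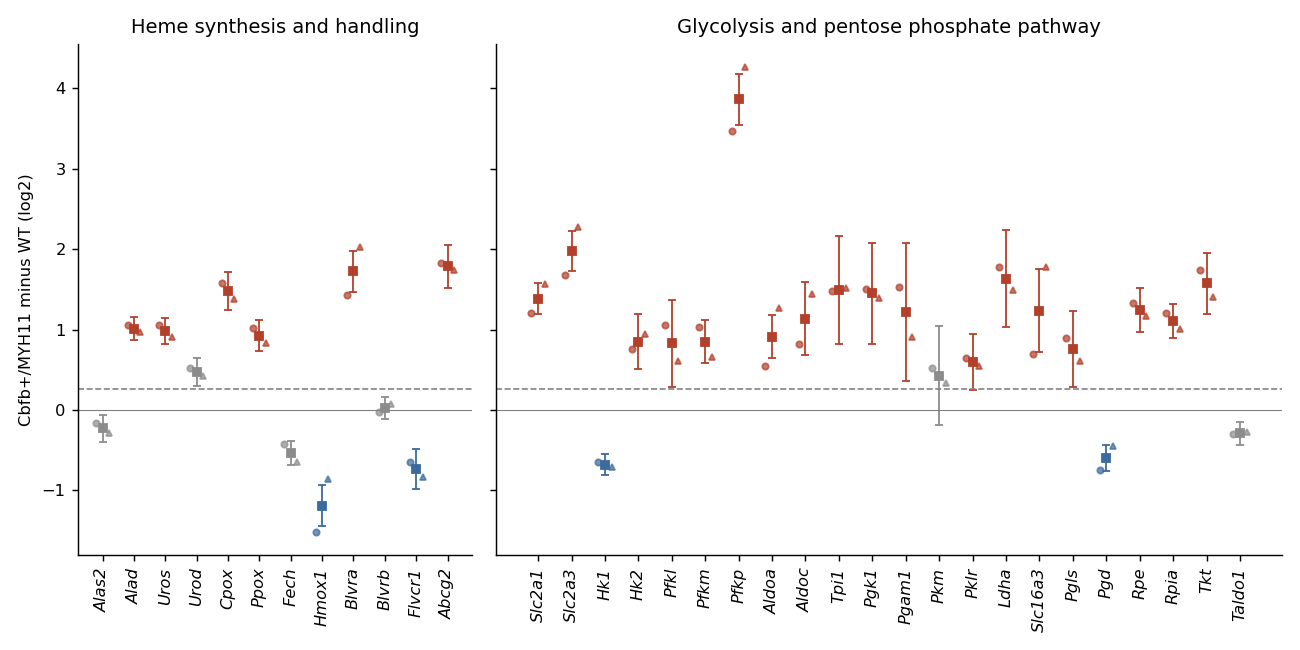
Change between Cbfb+/MYH11 and WT (log2, y axis) of genes of heme synthesis and handling (left) and of glycolysis and the pentose phosphate pathway (right), in pathway order (x axis). Squares with bars are the fit with its 95% interval, circles arrays 1 and 2, triangles arrays 3 and 4. Red genes were called higher, blue lower, grey not called, and the dashed line is the median of all tested genes (0.26). Alad, Uros, Cpox and Ppox lie above it between Alas2 (-0.23) and Fech (-0.53), and Pfkp (3.87) stands above all others.

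Of 12 tested genes of iron uptake and storage 4 rose and 0 fell, a share close to the 30.5% of all tested genes that rose. The transferrin receptor gene Tfrc stood at 10.54, 10.62, 10.62 and 10.55 in WT and at 11.76, 11.71, 11.38 and 11.42 in the mutant and rose 1.98-fold in both pairs. The iron regulatory gene Ireb2 (0.96) and the iron chaperone genes Pcbp1 (0.68) and Pcbp2 (0.69) were the others, of which only Pcbp2 passed in both pairs. Pcbp1 and Pcbp2 were both at 0.47 and not called with quantile normalization, Pcbp1 was lost without WT array 1 (0.53), Pcbp2 with the mean of its probe sets (0.33) and Ireb2 with the array pair as a random block.

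Genes of the red cell surface and of the last maturation steps were lower more often than higher. Tspo2, a late erythroid membrane protein gene, stood at 9.57, 10.00, 9.52 and 9.51 in WT and at 7.48, 7.52, 6.64 and 6.61 in the mutant and fell by 2.59. The surface genes Cd24a (-1.59) and Xk (-1.10) and the membrane scaffold gene Mpp1 (-1.08) fell in both pairs, and Add3 fell by 0.66. The glucose transporter gene Slc2a1 (1.38), Gypc (0.92) and Icam4 (0.71) rose, so that of 23 tested 3 rose and 5 fell. With quantile normalization 1 rose and 8 fell, and Gypc (0.54) and Icam4 (0.35) were not called. Add3 lost its call with centred arrays (-0.55) and with the mean of its probe sets (-0.46).

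Of 23 late maturation genes 8 fell and 2 rose. Bpgm, which makes the ligand that lowers the oxygen affinity of haemoglobin, stood at 13.33, 13.38, 12.95 and 12.96 in WT and at 12.21, 12.23, 11.61 and 11.62 in the mutant (2.35-fold lower). The ubiquitin ligase gene Ube2o, which clears ribosomes from reticulocytes, fell by 1.10, and the autophagy gene Gabarapl2, Tent5c and Ube2l6 fell by 0.76, 0.75 and 0.66, all in both pairs. Isg20 (-0.83) and Xpo7 (-0.66) fell over all arrays and missed the call in 1 pair each. With centred arrays Xpo7 (-0.55) and Ube2l6 (-0.54) were not called, nor was Xpo7 without Cbfb+/MYH11 array 3 (-0.54) or 4 (-0.57). Hemgn, a nuclear protein gene of erythroid precursors, stood at 9.56, 9.70, 10.03 and 10.06 in WT and at 12.15, 12.04, 11.68 and 11.65 in the mutant and rose 4.12-fold. The antiproliferative gene Btg2 rose by 1.14.

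Antioxidant enzyme genes fell in 5 of 16 tested and rose in 1. The falls were those of the catalase gene Cat (-0.90), the quinone reductase gene Nqo1 (-0.99), the sulfiredoxin gene Srxn1 (-0.98), the glutathione synthesis gene Gclm (-0.72) and the mitochondrial dismutase gene Sod2 (-0.70). All 5 fell in both pairs, against 3.53% of all tested genes. Gclm, for instance, stood at 12.31, 12.42, 12.35 and 12.42 in WT and at 11.63, 11.68, 11.60 and 11.68 in the mutant. The call of Sod2 was lost with the mean of its probe sets (-0.49). Prdx3, a mitochondrial peroxiredoxin gene, rose by 0.70 and was not called with quantile normalization (0.44). Without WT array 3 or 4 the list had 2 risen genes.

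Of 23 erythroid transcription factor genes 6 rose and 3 fell, the rises a share no larger than the 30.5% of all tested genes. The master factor genes Klf1 (0.86) and Gata1 (0.77), Sox6 (0.85), which silences embryonic globin, Rb1 (0.79), Klf13 (0.78) and Lmo2 rose. Klf1 stood at 10.66, 10.71, 10.50 and 10.55 in WT and at 11.68, 11.68, 11.24 and 11.27 in the mutant. Nfix (-1.04), Nfia (-0.71) and Mafg (-0.65) fell. The 5 probe sets of Nfix ranged from -1.04 to -0.31. With quantile normalization 3 rose and 5 fell, and Gata1 (0.52), Rb1 (0.39) and Klf13 (0.38) were no longer called. Klf13 was also lost with the mean of its probe sets (0.32), and Mafg with centred arrays (-0.54).

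Genes of DNA replication and mitosis rose almost throughout. Replication origins are licensed by Cdc6 and the MCM helicase and copied by polymerases held on the PCNA clamp. Cdc6 stood at 3.45, 4.44, 6.28 and 6.16 in WT and at 7.29, 7.45, 7.72 and 7.67 in the mutant (5.45-fold, 2.64 to 11.2). Mcm7 stood at 6.68, 7.17, 9.04 and 8.99 in WT and at 9.81, 9.87, 9.90 and 9.91 in the mutant. Pcna stood at 8.83, 9.19, 10.35 and 10.33 in WT and at 11.73, 11.72, 11.50 and 11.48 in the mutant. In each of these the mutant arrays were alike and the WT arrays split by pair.

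Of 38 replication genes 34 rose and 0 fell, 26 in both pairs, where 20.7% of all tested genes did so. Of 33 mitosis genes 31 rose and 0 fell, also 26 in both pairs. Among the tested members, 3 replication and 2 mitosis genes passed the filter through the mutant arrays alone. The kinase gene Bub1 of the spindle checkpoint stood at 4.45, 4.31, 6.88 and 6.92 in WT and at 7.67, 7.97, 7.96 and 8.10 in the mutant. The topoisomerase gene Top2a rose 4.50-fold, the survivin gene Birc5 3.08-fold, the cyclin gene Ccna2 by 1.32 and the proliferation marker Mki67 2.31-fold, from 9.36 to 9.84 in WT to 10.73 to 11.03 in the mutant. The origin recognition genes Orc2 (1.36 and 1.28) and Orc6 (1.88 and 1.19) rose in both pairs. Over all arrays the other probe set of Orc2 gave 0.58. With the mean of probe sets 20 mitosis genes rose.

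The size of this rise depended on the array pair. Replication genes had a median of 1.89 in the first pair, arrays 1 and 2, and of 0.77 in the other, and mitosis genes of 2.03 and 0.86, against 0.31 and 0.20 for all tested genes. The change differed between the pairs for 27 replication and 28 mitosis genes. Without the filter the mean level of the mitosis list was 6.59 on WT arrays 1 and 2 and 7.57 on WT arrays 3 and 4, and 8.33 to 8.47 in the mutant. The lower levels were those of the WT arrays with the higher platelet, macrophage and liver levels, and what part these play in the difference was not tested.

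Among the genes that gate entry into the cycle, 9 of 20 rose and 1 fell. Of the 20, 3 passed the filter through the mutant arrays alone, Ccne2 and Rbl2 among them. The cyclin gene Ccne2 stood at 3.33, 3.48, 4.59 and 4.70 in WT and at 5.99, 6.17, 6.37 and 6.23 in the mutant. The D-type cyclin genes Ccnd2 (1.81) and Ccnd3 (1.14) rose, Ccnd3 from 10.05, 10.07, 10.22 and 10.23 to 11.44, 11.50, 11.07 and 11.12, though its call was lost with the mean of its probe sets (0.44). The kinase gene Cdk2 rose by 0.97 and the pocket protein genes Rbl1 by 1.61 and Rbl2 by 1.41. The inhibitor gene Cdkn1a (p21) rose too, from 6.43, 6.67, 6.43 and 6.43 to 7.46, 7.75, 8.16 and 8.12. Cdk6, a partner kinase of the D-type cyclins, fell by 0.78, with -0.27 in arrays 1 and 2. Its call was lost with centred arrays (-0.67), with the 8 arrays alone and without Cbfb+/MYH11 array 2 (-0.65) or 4 (-0.76) or WT array 3 (-0.57) or 4 (-0.59). Ccnd2 shares the limit given with the JAK-STAT genes and was at 1.28 without WT array 1, 1.36 without WT array 2 and 1.67 without Cbfb+/MYH11 array 3. With quantile normalization 4 fell, and with the mean of probe sets 3 rose.

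Ribosome biogenesis genes rose in 20 of 28 tested and fell in 0, with 15 risen in both pairs and a median of 1.03. Of the 28, 4 passed the filter through the mutant arrays alone, Rrp12 among them. The nucleolar gene Gnl3 stood at 6.32, 6.78, 7.58 and 7.61 in WT and at 9.24, 9.17, 9.27 and 9.26 in the mutant (4.47-fold). Nop58, a core protein of small nucleolar particles, rose by 1.84, the fibrillarin gene Fbl by 1.43 and the assembly factor gene Rrp12 by 1.43. Here too the median was larger in arrays 1 and 2 (1.45) than in arrays 3 and 4 (0.62).

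The median rise of glycolysis genes was alike in both pairs. The change still differed between the pairs for 5 genes of the list, among them Pfkp (3.47 and 4.26) and Slc2a3 (1.68 and 2.28). Of 24 tested genes of glycolysis and the pentose phosphate pathway 18 rose and 2 fell, 16 rose in both pairs, and the median was 0.97 in each pair. Pfkp, the platelet-type phosphofructokinase, stood at 4.69, 4.85, 4.43 and 4.61 in WT and at 8.25, 8.22, 8.79 and 8.77 in the mutant (14.6-fold, 11.7 to 18.2). Its other probe set gave 2.70 against 3.87, and Pfkp passed the filter through the mutant arrays alone. The muscle and liver forms Pfkm (0.85) and Pfkl (0.83) rose less and lost their calls with quantile normalization (0.51 and 0.44).

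Glucose transporter genes opened the pathway in the same direction. Slc2a3 stood at 8.86, 8.91, 8.73 and 8.75 in WT and at 10.54, 10.58, 11.01 and 11.02 in the mutant (3.94-fold), and Slc2a1 at 10.27 to 10.47 and 11.55 to 11.88. Of the hexokinases Hk2 rose by 0.85, whereas Hk1, the form of red cells, stood at 10.00, 10.02, 10.08 and 10.01 in WT and at 9.32, 9.41, 9.34 and 9.33 in the mutant and fell 1.60-fold. Further down, Aldoc (1.14), Pgk1 (1.45), Pgam1 (1.22) and the lactate dehydrogenase gene Ldha (1.64) rose, and Pkm (0.43) did not pass. In the pentose phosphate branch the transketolase gene Tkt (1.57) and the isomerase and epimerase genes Rpia (1.10) and Rpe (1.24) rose, while Pgd fell by 0.59. Quantile normalization ended the call of Hk2 (0.57), and with centred arrays 0 fell, with Hk1 at -0.57 and Pgd at -0.48. Pgd was lost too without Cbfb+/MYH11 array 2 (-0.56) or WT array 1 (-0.58) or 2 (-0.54). Pgam1 was lost with the 8 arrays alone and without Cbfb+/MYH11 array 3 (1.05) or 4 (1.04) or WT array 1 (0.87) or 2 (1.02).

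Genes of serine synthesis, one-carbon metabolism and the ATF4 response rose in 11 of 19 and fell in 1, 10 risen in both pairs. Psph, the last enzyme of serine synthesis, stood at 3.70, 3.49, 4.17 and 4.31 in WT and at 6.35, 6.11, 6.73 and 6.69 in the mutant (5.86-fold). The asparagine synthetase gene Asns stood at 8.87, 9.21, 8.72 and 8.68 in WT and at 10.63, 10.66, 10.77 and 10.76 in the mutant (3.56-fold). Psat1 (1.52), Gars (1.42), Mthfd2 (1.29) and the mTOR inhibitor gene Ddit4 (2.70) rose as well. Atf4 itself was at 0.00, Phgdh at -0.08, and Trib3, another target of ATF4, fell by 0.96. Without Cbfb+/MYH11 array 1 or WT array 4, 2 of the list fell.

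Cholesterol synthesis genes rose in 7 of 15 and fell in 0, with 6 risen in both pairs. Of all tested genes 30.5% rose, and 20.7% did so in both pairs. The risen genes of the list included Idi1 (1.18), Cyp51 (1.15), Ebp (1.24) and the regulator gene Srebf1 (1.15), while Srebf2 (0.05) and Hmgcs1 (0.29) did not pass. Cyp51 lost its call with the array pair as a random block, and Srebf2 passed with the mean of its probe sets (0.60). Fdft1, the squalene synthase gene, rose by 1.45, but its probe sets ranged from -0.28 to 1.45 and their mean was not called (0.51).

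**Figure D5:**
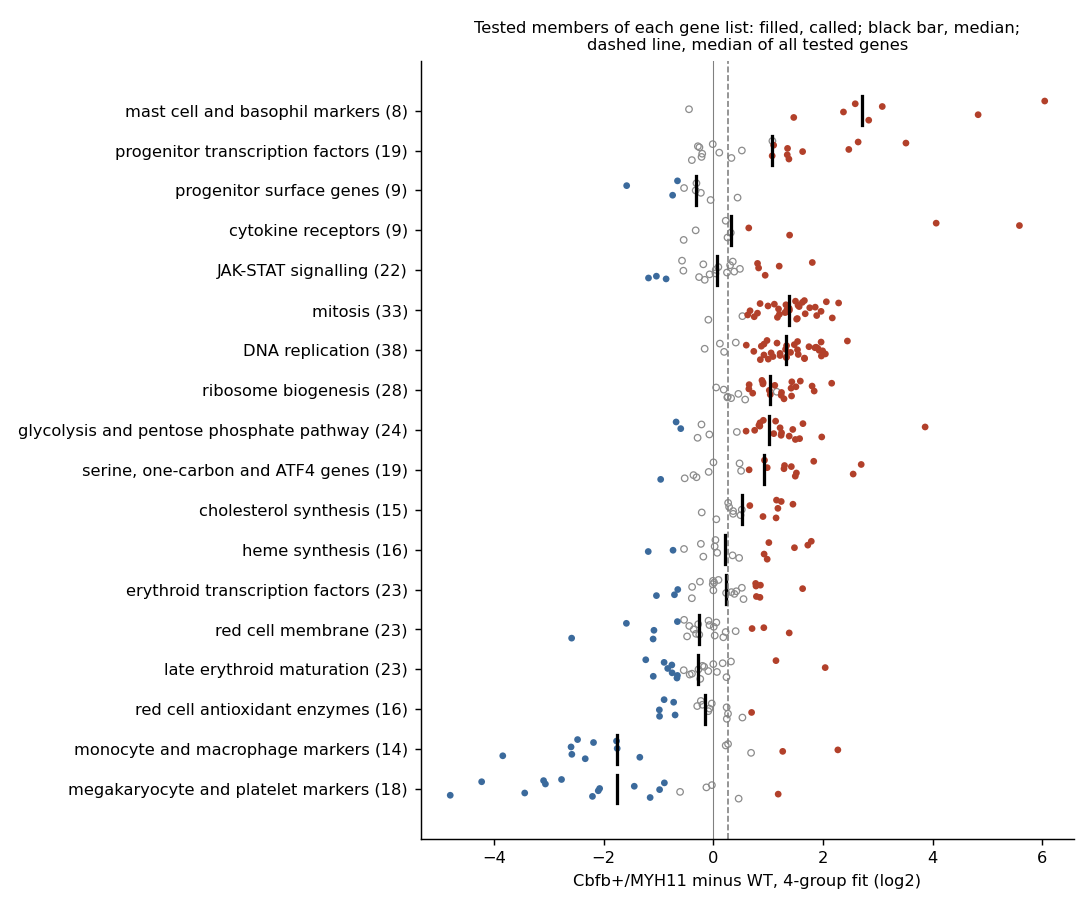
Change between Cbfb+/MYH11 and WT (log2, x axis) of every tested member of 18 gene lists (rows, number tested in brackets). Filled points were called (red higher, blue lower), open points not, black bars are list medians and the dashed line is the median of all tested genes (0.26). The medians of mitosis (1.38) and DNA replication (1.33) lie to its right and those of macrophage and platelet markers (both -1.76) to its left; most mast cell and basophil genes shown passed the filter through the mutant arrays alone.

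Stress and damage responses were mixed. Of 12 tested p53 targets 3 rose and 0 fell, a share no larger than that of all tested genes. All 3 rose in both pairs: Cdkn1a, Ccng1 (1.27) and Btg2 (1.14). Mdm2 (0.28), which degrades p53, and the cell death gene Bbc3 (-0.46) did not pass, and with quantile normalization 2 of the list fell. Of the BCL2 family only Bad (0.60) rose among 6, and that call was lost with quantile normalization (0.55) and without Cbfb+/MYH11 array 3 (0.50), WT array 1 (0.51) or WT array 2 (0.57). In that family Bcl2l1 (-0.57) passed as lower without Cbfb+/MYH11 array 1 (-0.61) or 2 (-0.64) or WT array 3 or 4 (both -0.65). The heat shock genes Hspa1a (1.30) and Hspa1b (1.64), near-identical copies, and Jun (1.41) rose in both pairs. Fos, the partner of Jun, stood at 8.50, 8.78, 8.14 and 8.16 in WT and at 6.87, 6.82, 7.06 and 6.95 in the mutant and fell 2.76-fold. Over the 15 tested immediate early and stress genes 4 rose and 1 fell, shares near those of all tested genes (30.5% and 5.63%). With quantile normalization 3 rose and 4 fell, and 2 fell without Cbfb+/MYH11 array 1 or WT array 3 or 4.

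Interferon response genes fell in 3 of 7 tested, 2 of them in both pairs, and rose in 1. Of all tested genes 5.63% fell, and 3.53% did so in both pairs. Rsad2, an antiviral radical enzyme gene, stood at 11.41, 11.43, 10.34 and 10.35 in WT and between 8.02 and 9.10 in the mutant. Each pair had a level of its own, and the difference between genotypes was the same in both (-2.37 and -2.30; 5.04-fold lower). Ifitm3 fell by 2.50, and Oas2 by 0.59 with no call in arrays 3 and 4. Oas2 was lost with centred arrays (-0.48), with the 8 arrays alone and without Cbfb+/MYH11 array 3 (-0.57) or 4 (-0.52) or WT array 1 (-0.48) or 2 (-0.37). Ifi35 rose by 1.17.

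In markers of several tissues outside the blood, the difference between the genotypes was not the same in both array pairs. Afp, made by liver and yolk sac, stood at 11.97, 11.86, 6.33 and 6.20 in WT and at 5.71, 5.77, 8.20 and 8.27 in the mutant. It was thus far higher in WT in arrays 1 and 2 and higher in the mutant in arrays 3 and 4, and the difference between the pairs had an adjusted p = 5.69e-14 in limma. Ttr (-2.43 and 2.16), Alb (-1.45 and 1.34) and Apoe (-0.61 and 2.52) turned in the same way. All 10 tested liver and visceral endoderm genes differed between the pairs, and of the 5 that fell over all arrays none fell in both. With the 8 arrays of this cross alone 2 fell, as without WT array 1, and 3 without WT array 2. Afp passed as lower without WT array 3 (-3.02) or 4 (-3.07), and Apoe as higher without WT array 2 (1.35).

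Of 15 tested neural genes 4 rose, 3 of them in both pairs, shares no larger than those of all tested genes (30.5% and 20.7%). Fabp7, a fatty acid binding protein of neural precursors, stood at 3.51, 3.68, 5.41 and 5.40 in WT and at 7.52, 7.55, 8.37 and 8.38 in the mutant. Tubb2b rose by 2.57, Sox2 by 2.08 and Fez1 by 1.01, but all 3 lost their calls with the 8 arrays alone. Tubb2b was lost without Cbfb+/MYH11 array 3 (2.22) or 4 (2.21) or WT array 1 (1.81) or 2 (2.12). Sox2 was lost without Cbfb+/MYH11 array 3 (1.59) or 4 (1.52), and Fez1 without these (0.79 and 0.73) or WT array 2 (0.89). The count of risen genes was 1 with the 8 arrays alone, 2 with the array pair as a random block and 8 with the replicate block. It was 8 without Cbfb+/MYH11 array 2, 1 without Cbfb+/MYH11 array 3 or 4 and 2 without WT array 2. The mean level of the 21 neural genes was 4.35 on WT arrays 1 and 2 and 5.35 on arrays 3 and 4, and 4.98 and 6.55 in the mutant.

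Of 15 mesenchyme genes 1 rose and 1 fell. Col5a1 stood at 6.83, 6.89, 7.85 and 7.78 in WT and at 9.86, 9.98, 9.97 and 10.06 in the mutant and rose 6.20-fold, while the other collagen genes Col1a1 (-0.72), Col1a2 (-0.44) and Col3a1 (-0.45) did not pass. Dcn fell by 0.95. With quantile normalization 5 of the list fell, and with the replicate block 2 rose and 4 fell. Without WT array 1, 4 fell, and without WT array 3 or 4, 2 rose. Col1a1 passed as lower with the replicate block and without WT array 1 (-0.99). Genes with the largest turn between pairs included the mesenchyme cadherin gene Cdh11 (2.75 in arrays 1 and 2, -0.91 in arrays 3 and 4), Mest (2.23 and -0.32), the apelin receptor gene Aplnr (1.92 and -1.48), the connexin gene Gja1 (3.06 and -0.25), the cardiac actin gene Actc1 (1.22 and -1.43), Myh10 (1.84 and -0.85) and Wdr6 (1.75 and -0.71). Each of these was higher on WT arrays 3 and 4 than on the other 6 arrays of this cross, and Gja1 passed as higher without WT array 3 (2.01) or 4 (1.97). The levels of Cdh11 were 8.32 and 8.25 on these, against 3.91 and 3.49 on WT arrays 1 and 2 and 6.44 to 7.43 in the mutant. Maob (0.70 and 4.84) and Prap1 (-4.25 and -0.98) changed unequally with 1 sign.

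Of 3 tested endothelial genes Egfl7 rose (0.61), a call lost with quantile normalization (0.31) and without Cbfb+/MYH11 array 3 (0.57) or WT array 3 (0.51). Krt8 fell by 1.30 among 3 epithelial genes, Myl9 was the only one of 7 muscle genes to fall (4 fell without WT array 2), and the trophoblast gene Hand1 (-0.36) did not pass. Xist, the transcript of the inactive X chromosome, stood at 7.58, 7.40, 9.29 and 9.14 in WT and at 8.50, 8.62, 9.45 and 9.51 in the mutant, a change of 0.67 that did not pass but was called with the replicate block and without WT array 3 (0.98).

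The change of 10 genes was set beside that in blood without any Cbfb, in the cross of Cbfb+/- mice. Csf2rb was at 7.71, 7.55 and 7.58 in Cbfb-/- and at 7.71, 7.57 and 7.55 in Cbfb+/+ blood, so that the rise was larger with the fusion by 4.06 (adjusted p = 1.47e-09 in limma). For Csf2rb2 the difference between the crosses was 5.72 (adjusted p = 1.47e-09), for Gata2 4.30 (adjusted p = 2.18e-06), for Ms4a2 5.38 (adjusted p = 3.79e-07) and for Cd200r3 6.21 (adjusted p = 2.33e-07). Npl, a sialic acid lyase gene (4.48), and Prnp (3.54) differed likewise. The 10 genes were chosen with earlier results of these data known. Ms4a2 and Cd200r3 passed the filter through the mutant arrays alone, so their differences were fixed in advance and are no separate evidence. Gata2 in the null blood was at -0.78 against its own controls.

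The platelet genes Pf4 and Ppbp and the macrophage gene Mrc1 were lower in both crosses. Pf4 was at 8.82, 8.88 and 8.87 in Cbfb-/- and at 10.32, 10.31 and 10.29 in Cbfb+/+ blood, a change of -1.45 against -3.44 with the fusion, and the difference of -1.99 had an adjusted p = 0.0102. The Pf4 difference was lost with the array pair as a random block. For Ppbp (-2.84 against -4.80; adjusted p = 0.0546) and Mrc1 (-3.39 against -3.84; adjusted p = 0.766) no difference was called, but with the replicate block or the array pair as a fixed block that of Ppbp was called (-1.96; adjusted p = 0.0236 and 0.0103). It was also called with the mean of probe sets and without WT array 3 (-2.32) or 4 (-2.36). The crosses have different parents, so genetic background and day of collection cannot be told apart from the alleles here, and with 1 value per pair or group none of the 10 differences was called.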

How the data were processed

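Blood RNA was read on Affymetrix mouse expression arrays, and the authors deposited log2 values after RMA, per the submitters' processing notes (Affymetrix Expression Console, version not given in the sources used here). Of 45101 probe sets, 34945 carry 1 gene symbol in the platform annotation, covering 18193 genes, and 34741 matched RefSeq by gene ID. The probe set with the highest mean stood for its gene, and 7392 genes at 6 or above on at least 3 of 14 arrays were tested. The fit used limma 3.58.1 in R 4.3.3 with 4 groups. A call needs a Benjamini-Hochberg adjusted p under 0.05 and a change of 1.5-fold. Array medians lay between 4.27 and 4.46, and 31.0% to 35.9% of genes reached 6. Because the arrays of a pair are close to each other, the number of arrays overstates the precision. With the array pair as a random block, the estimated correlation within pairs was 0.76. The intervals given with folds come from the fit of single arrays, without this correlation, and are limited in the same way. A fit of 6 groups, with each array pair of this cross as a group, gave the changes within pairs. Deviations of arrays with the same number correlated at 0.41 to 0.52 between genotypes. Arrays with different numbers were not compared in this way, so these values do not show that the numbers pair the samples.

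Members and the 39 gene lists were chosen with earlier results of these data known. Genes named were the 15 largest rises and 15 largest falls by the smaller within-pair change, the 8 largest pair differences in each direction, up to 4 of each list and a fixed set. Further list members, and the genes called with 1 value per pair, were chosen after their values were seen. The method was tested on simulated data with independent noise on each array. These data lacked the array pairs, so that test cannot show how far the calls hold for paired arrays.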

Additional observations from a re-analysis of the deposited data

Results flagged for a closer look

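Among the genes named, 498 groups of 4 arrays were searched for 1 array that lay far from the others, and 13 had one. For 4 independent values chance gives about 1 in 20, so the 13 are fewer than that rate. These arrays come in close pairs, so the rate need not apply, and the values are listed only for checking. On WT array 2, Cdkn1a stood at 6.67 (the others at 6.43), Mafg at 8.71 (8.48 to 8.51), Mdm2 at 7.98 (7.60 to 7.63), Rrp12 at 4.56 (4.79 to 4.80), Slc2a1 at 10.47 (10.27 to 10.30), Sox6 at 6.18 (the others at 6.01 or below) and Tspo2 at 10.00 (9.51 to 9.57). On WT array 1, Csf2rb2 stood at 5.17 (5.62 to 5.70). On Cbfb+/MYH11 array 1, Padi3 stood at 6.57 (7.13 to 7.21), Prdx3 at 10.34 (10.51 to 10.52) and Thbs1 at 4.48 (4.85 to 4.91). On Cbfb+/MYH11 array 2, Mcl1 stood at 9.62 (9.70 to 9.71) and Nop58 at 7.83 (7.62 to 7.64).

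The change with the fusion exceeded the change in Cbfb-/- blood, each against its own controls and by a test of the difference in limma, for Csf2rb (4.06), Csf2rb2 (5.72), Gata2 (4.30), Ms4a2 (5.38), Cd200r3 (6.21), Npl (4.48) and Prnp (3.54), and Pf4 was lower by more (-1.99). Of these genes, Ms4a2 and Cd200r3 passed the filter through the mutant arrays alone and so had to differ.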

How the results depend on the processing

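Of 249 genes named and tested, 55 stayed on the same side of the threshold, with the same direction, under every alternative that tested them, and no named gene reversed. Quantile normalization gave 1307 genes higher and 1043 lower (734 and 622 in both pairs), so the share of higher genes among those called was 55.6% against 84.4%; centred arrays gave 266 lower and 91.0% higher. Without the filter 759 were lower (395 in both pairs), and with a filter at 7, 276. The mean of probe sets gave 1425 higher (970 in both pairs), 276 lower and 886 that differed between the pairs. Without the fold floor 1271 were lower. The replicate block gave 2336 higher and 430 lower; beside Bmi1, Col1a1, Gja1 and Xist, which passed under it, it changed no other call of a named gene. Leaving out 1 array gave 1883 to 2524 higher and 375 to 490 lower.

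With 1 value per pair or group, 17 genes were higher and 1 lower. The differences between crosses kept their size and lost their calls there (Csf2rb 4.06, Csf2rb2 5.72, Gata2 4.30, Ms4a2 5.38, Cd200r3 6.21, Npl 4.48, Prnp 3.54 and Pf4 -1.99, the last also with the array pair as a random block). Ppbp (-1.96) passed with the mean of probe sets and with the replicate or fixed pair block, and leaving out 1 array gave values from -2.36 (without WT array 4) to -1.57 (without WT array 2), with a call also without WT array 3 (-2.32). The causes were not tested. Values near 4 or below, close to the floor of the arrays, limit the folds of genes absent from WT.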
